A study of Mus musculus with 19 samples.

Results

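The 9 genes described here encode feedback inhibitors of the MAP kinase pathways: the dual-specificity phosphatases Dusp1, Dusp4, Dusp5, Dusp6 and Dusp14, the Sprouty proteins Spry2 and Spry4, and the Sprouty-related proteins Spred1 and Spred2. They were chosen by name and function, with earlier results of these data known, so counts over the 9 are descriptions. All 9 were found, by Ensembl identifier, among the 51789 genes of the count table. MAP kinases such as ERK are switched on by phosphorylation when growth factor receptors or synaptic activity signal to the neuron, and ERK signalling in the hippocampus is a known requirement for lasting memory. Many of its transcriptional targets are inhibitors of the same cascade. The DUSP proteins remove the activating phosphates from the kinases themselves, whereas Sprouty and Spred proteins act further upstream, between the receptor, Ras and Raf.

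The tissue was dorsal hippocampus, taken from C57BL/6J males aged 2 to 4 months, and its total RNA was sequenced in 19 libraries and 2 experiments. In experiment 1 every mouse was tTA+ (tTA is the tetracycline transactivator, a protein that switches on transgenes under a tet promoter) and every mouse was exposed to SOR. SOR is not spelled out in the labels; in this field it usually stands for spatial object recognition, a memory task. Of these mice, 5 were tTA+/DN+, carrying a dominant-negative Nr4A transgene, and 6 were tTA+/DN- littermate controls. In experiment 2 no mouse carried DN: 4 control mice were exposed to SOR (replicate 1 tTA-, replicates 2 to 4 tTA+) and 4 were homecage mice (replicates 1 and 2 tTA-, replicates 3 and 4 tTA+). The promoter that drives tTA, the time between SOR and dissection, and whether a library holds 1 mouse are not given in the sources used here. The p-values therefore set differences against the spread between these libraries, and mice counted or compared in this text stand for libraries. Levels are in CPM, a gene's counts scaled to a common library total, with TMM factors between libraries.

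The libraries held 22258159 to 66991576 counts, and the smallest was SOR replicate 3 of experiment 2. Counts of the 9 genes ranged from 194 (Dusp1) to 13291 (Spred1) in a library, so none was near the limit of detection. Neuronal markers were abundant in every library (Snap25, Rbfox3, Syt1 and Camk2a summed to 3536 to 5215 CPM), and markers of CA1, CA2, CA3 and dentate granule cells were present in all of them. In bulk tissue, fewer cells of a type and less RNA per cell cannot be told apart.

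The promoters of Dusp1 and Dusp5 are shown because they hold response elements known to be used by activity-induced genes, and because Dusp5 had the largest difference of the 9 genes after SOR and Dusp1 a small one. Both stretches come from RefSeq (GRCm38.p6), run from 250 bases before to 50 after the annotated start, and read 5′ to 3′ on the strand of the gene. The Dusp1 stretch lies at chr17:26508423-26508722 on the minus strand; capitals mark TGACGTCA, the full cAMP response element (CRE), and TGACG, its short form. The Dusp5 stretch lies at chr19:53528895-53529194 on the plus strand; capitals mark 2 adjoining CArG boxes, the core of the serum response element (SRE), and 1 short CRE, which is on the opposite strand and so reads CGTCA.
Dusp1: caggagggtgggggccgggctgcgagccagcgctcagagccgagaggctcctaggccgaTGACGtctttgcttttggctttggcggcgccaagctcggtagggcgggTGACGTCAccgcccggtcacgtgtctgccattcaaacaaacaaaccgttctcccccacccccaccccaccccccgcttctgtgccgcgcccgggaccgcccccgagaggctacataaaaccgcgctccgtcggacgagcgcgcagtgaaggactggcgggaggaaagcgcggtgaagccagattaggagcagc
Dusp5: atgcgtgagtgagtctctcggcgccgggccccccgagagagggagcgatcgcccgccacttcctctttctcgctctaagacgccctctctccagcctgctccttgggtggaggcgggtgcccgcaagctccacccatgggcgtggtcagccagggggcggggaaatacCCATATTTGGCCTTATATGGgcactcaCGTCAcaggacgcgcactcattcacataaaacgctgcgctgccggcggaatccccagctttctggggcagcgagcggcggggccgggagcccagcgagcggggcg

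Both strands were searched for the full CRE, the short CRE (counted also inside a full CRE), the AP-1 site TGANTCA, the CArG box, and AAAGGTCA, the NBRE letters that Nr4A monomers are known to bind. Among 32851 RefSeq promoters of the same length, 1.79% held a full CRE, 20.8% a short CRE, 7.81% an AP-1 site, 1.51% an NBRE and 1.63% a CArG box. Promoters of 7 of the 9 genes were searched. The full CRE of Dusp1 was at -143 to -136 from the start and a separate short CRE at -191 to -187. In Dusp5 the CArG boxes, CCATATTTGG and CCTTATATGG, were at -82 to -73 and -72 to -63, and the short CRE was at -55 to -51. A short CRE at -51 to -47 in Spred2 was the only other match among the 7 promoters to any of the 5 motifs. These are matches of letters and were not tested for binding.

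**Figure D1:**
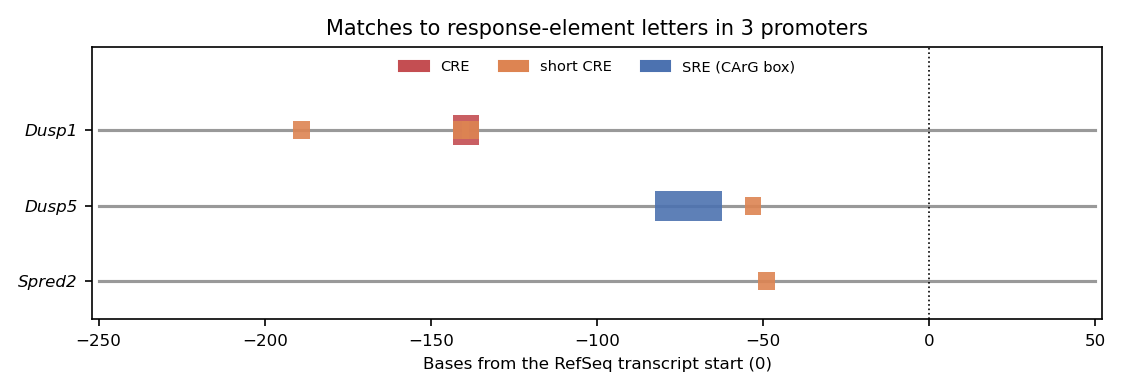
Matches to the full CRE, short CRE and CArG box in the promoters of Dusp1, Dusp5 and Spred2, by distance in bases from the RefSeq transcript start. Dusp1 holds the only full CRE, at -143 to -136, and Dusp5 the only CArG boxes, side by side between -82 and -63.

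The genes differed widely in level. Per kb of merged exons, homecage levels were highest for Spred1, at 26.7 ± 2.09 CPM per kb (SD, n = 4), and for Dusp6, the cytoplasmic phosphatase of ERK, at 21.4 ± 1.79. Spry2 followed at 17.1 ± 1.15, Dusp14, a small phosphatase without a kinase-binding domain, at 15.0 ± 2.02, and Dusp4, a nuclear phosphatase, at 11.8 ± 0.542. Spred2 was at 7.44 ± 0.219, and Dusp5, a nuclear phosphatase specific for ERK, at 4.79 ± 0.819. Lowest were Dusp1, a nuclear phosphatase of p38, JNK and ERK, at 2.54 ± 0.455 and Spry4 at 1.84 ± 0.159.

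In this order the homecage ranges of most neighbours did not overlap. The exceptions were Spry2 with Dusp14 (15.6 to 18.5 against 12.3 to 16.8), Dusp14 with Dusp4 (11.0 to 12.3) and Dusp1 with Spry4 (1.99 to 3.02 against 1.68 to 1.99). Scaled by the longest transcript instead, Dusp14 (18.6 CPM per kb) came before Spry2 (17.1), and Dusp1 was at 3.63. The table lists Dusp1, Spry2 and Spry4 under an earlier identifier version than the annotation that gave the lengths, so the per-length levels of these 3 genes are less certain.

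**Figure D2:**
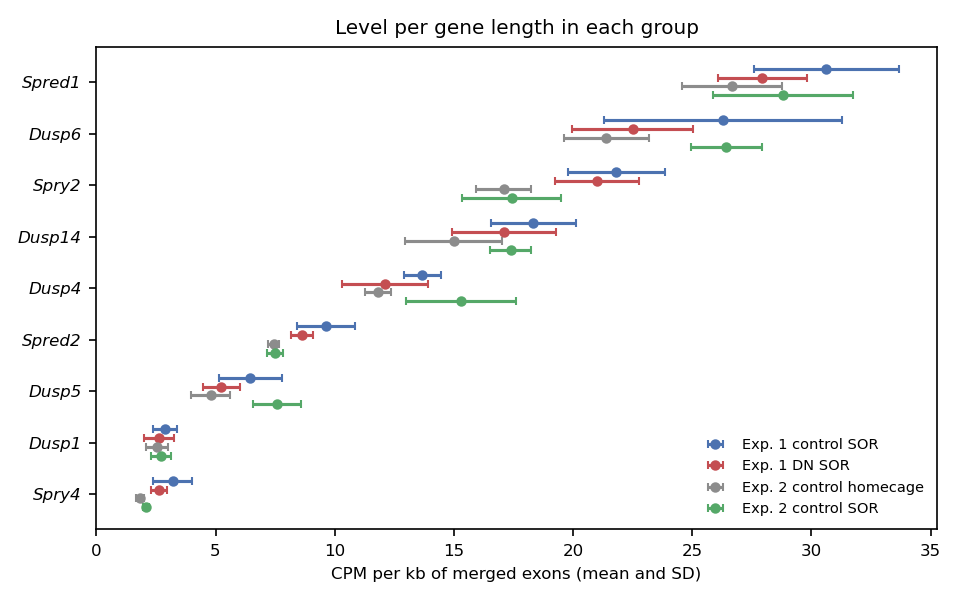
Mean level of each gene in CPM per kb of merged exons in the 4 groups, with SD (n = 6, 5, 4 and 4 from top to bottom of the key). Spred1 and Dusp6 are the highest in every group, and Dusp1 and Spry4 the lowest.

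The first comparison asked which of these inhibitors changed with SOR in control mice of experiment 2. The phosphatases Dusp5, Dusp4 and Dusp6 were higher after SOR, by 1.595-, 1.30- and 1.24-fold, and in each of them all 4 SOR libraries lay above all 4 homecage libraries. None of the 9 genes passed the test over all genes, so none is called changed. All 9 fold changes were above 0, as were 51.5% of all genes. Dusp1, the Sprouty genes and the Spred genes differed little between the groups.

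Dusp5 (ENSMUSG00000034765.6, chromosome 19, 53529109 to 53542431, GRCm38) measured 21.2, 18.1, 20.1 and 15.6 CPM in SOR replicates 1 to 4. Homecage replicates 1 to 4 gave 12.8, 12.6, 8.83 and 13.2 CPM. The lowest SOR library was thus above the highest homecage library, and homecage replicate 3 stood below the other 3. The log2 fold change was 0.67 (SE 0.147, 95% interval 0.353 to 0.995; unadjusted p 6.95e-04, adjusted p 0.228 by edgeR). With 1 library left out it was 0.55 to 0.75, lowest without homecage replicate 3. By rank of p, Dusp5 was number 67 of the 22305 genes tested.

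Dusp4 (ENSMUSG00000031530.6, chromosome 8, 34807297 to 34819894) gave 36.5, 43.3, 50.4 and 37.6 CPM in the SOR libraries and 32.5, 33.7, 30.3 and 32.9 CPM in the homecage ones. The highest value belonged to SOR replicate 3, the smallest library. The log2 difference was 0.38 (SE 0.109; unadjusted p 0.00476, adjusted p 0.518 by edgeR). Leaving out 1 library gave 0.28 to 0.44, lowest without SOR replicate 3.

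Dusp6 (ENSMUSG00000019960.8, chromosome 10, 99263231 to 99267489) measured 88.4, 81.1, 77.4 and 84.1 CPM with SOR against 65.2, 60.8, 68.0 and 74.2 CPM without. The groups were separate, with the tTA- libraries at both ends: SOR replicate 1 was the highest and homecage replicate 2 the lowest. The log2 difference was 0.31 (SE 0.0857; unadjusted p 0.00353, adjusted p 0.468 by edgeR). Among tTA+ mice alone it was 0.20 (unadjusted p 0.138), against 0.72 for Dusp5 and 0.48 for Dusp4.

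Over all genes 20 of 22305 were called by edgeR, or 0.0897%, against 0 of the 9 genes. At an unadjusted p under 0.05 with a positive change there were 3 of the 9, where 3.67% of all genes met this. Groups that did not overlap, with SOR higher, were found in the same 3 genes and in 2.71% of all genes. The median log2 fold change of the 9 was 0.18, and that of all genes 0.01. DESeq2 called 1 of the 9, Dusp5, with an adjusted p of 0.00860, and limma-voom called 0. Over the 19 alternative fits the adjusted p of Dusp5 ranged from 0.00860 to 0.998 and its unadjusted p from 3.43e-05 to 0.0107.

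Dusp14 was at 32.6 to 36.2 CPM after SOR and 23.9 to 32.7 CPM in the homecage, a log2 fold change of 0.22 (95% interval -0.01 to 0.45), which was 0.14 without homecage replicate 1. Spry4 was at 9.28 to 10.6 against 7.98 to 9.46 CPM, with a log2 fold change of 0.18 (95% interval -0.06 to 0.42). The ranges of both genes overlapped by a small margin. Spred1 had a log2 fold change of 0.12 (SE 0.0939), Dusp1 of 0.10 (SE 0.158), Spry2 of 0.04 (SE 0.102) and Spred2 of 0.02 (SE 0.0772). The value of Spred1 was 0.19 without SOR replicate 3 (unadjusted p 0.0227) and 0.07 without homecage replicate 1. In tTA+ mice alone the log2 fold changes were 0.00 for Spred1, 0.10 for Dusp14, 0.10 for Spry4, -0.02 for Dusp1, 0.12 for Spry2 and 0.00 for Spred2, with unadjusted p from 0.453 (Dusp14) to 0.987 (Spred2). For Dusp1, the gene with the full CRE, SOR libraries were at 7.77, 8.17, 9.10 and 10.8 CPM and homecage libraries at 7.85, 6.58, 9.17 and 10.01 CPM. Its 95% interval, -0.25 to 0.45, leaves room for a change as large as the one measured for Dusp4.

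Choroid plexus markers, RNA of a neighbouring tissue, also differed between these groups. All 8 were higher after SOR, 3 of them at an unadjusted p under 0.05 and 0 called, with a median log2 fold change of 1.93. Their summed level was 1003, 2223, 23.8 and 59.9 CPM in SOR replicates 1 to 4 and 47.5 to 178.7 CPM in the homecage. The levels of Dusp4, Dusp5 and Dusp6 in the same libraries are given above. Endothelial markers summed to 137.4 to 152.8 CPM after SOR and 153 to 170.5 CPM in the homecage. Of these 5 markers, 4 had a fold change below 0 and 1 above, and 0 were called. The part of choroid plexus or endothelial RNA in the SOR values was not tested.

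The other genes of the pathway, taken from lists by role, follow. Of 15 ERK-dependent transcripts outside the 9 genes, 2 rose: Arc, a synaptic protein induced by activity, by 0.79 on the log2 scale (edgeR adjusted p 0.0131), and the transcription factor Fos by 1.17 (edgeR adjusted p 0.0432). Without homecage replicate 1, 2 or 3, only 1 gene of the whole table was called, so in each of those fits Arc or Fos or both missed the threshold. In tTA+ mice alone no gene was called, Arc and Fos included. At an unadjusted p under 0.05, 6 of the 15 were higher and 1 was lower, against 3.67% and 3.93% of all genes. Of 8 other feedback inhibitors tested, 0 were called and 3 were under an unadjusted p of 0.05 in either direction, as were 7.60% of all genes. Errfi1, an inhibitor of the EGF receptor, averaged 67.7 ± 7.65 CPM against 47.6 ± 6.62 in the homecage (SD, n = 4 each; log2 difference 0.52, SE 0.115, edgeR adjusted p 0.255). Il17rd, an inhibitor of FGF signalling, was at -0.42 (SE 0.174) and Rasa1, a Ras GTPase activator, at -0.23 (SE 0.0997).

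Of 22 ERK cascade genes 0 had an unadjusted p under 0.05, with 12 above and 10 below 0. Among 11 JNK and p38 cascade genes tested there was 1, Map2k6, at -0.25 (SE 0.0917). Among 11 upstream receptors and ligands there were 2, Fgfr2 at -0.30 (SE 0.0971) and Ntrk3 at -0.31 (SE 0.123). None of these was called by edgeR. The 6 other MAP kinase phosphatases (Dusp2, Dusp7, Dusp8, Dusp9, Dusp10 and Dusp16) had 0 under an unadjusted p of 0.05 and a median log2 fold change of 0.00. Nor did any of the 10 atypical phosphatases tested.

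**Figure D3:**
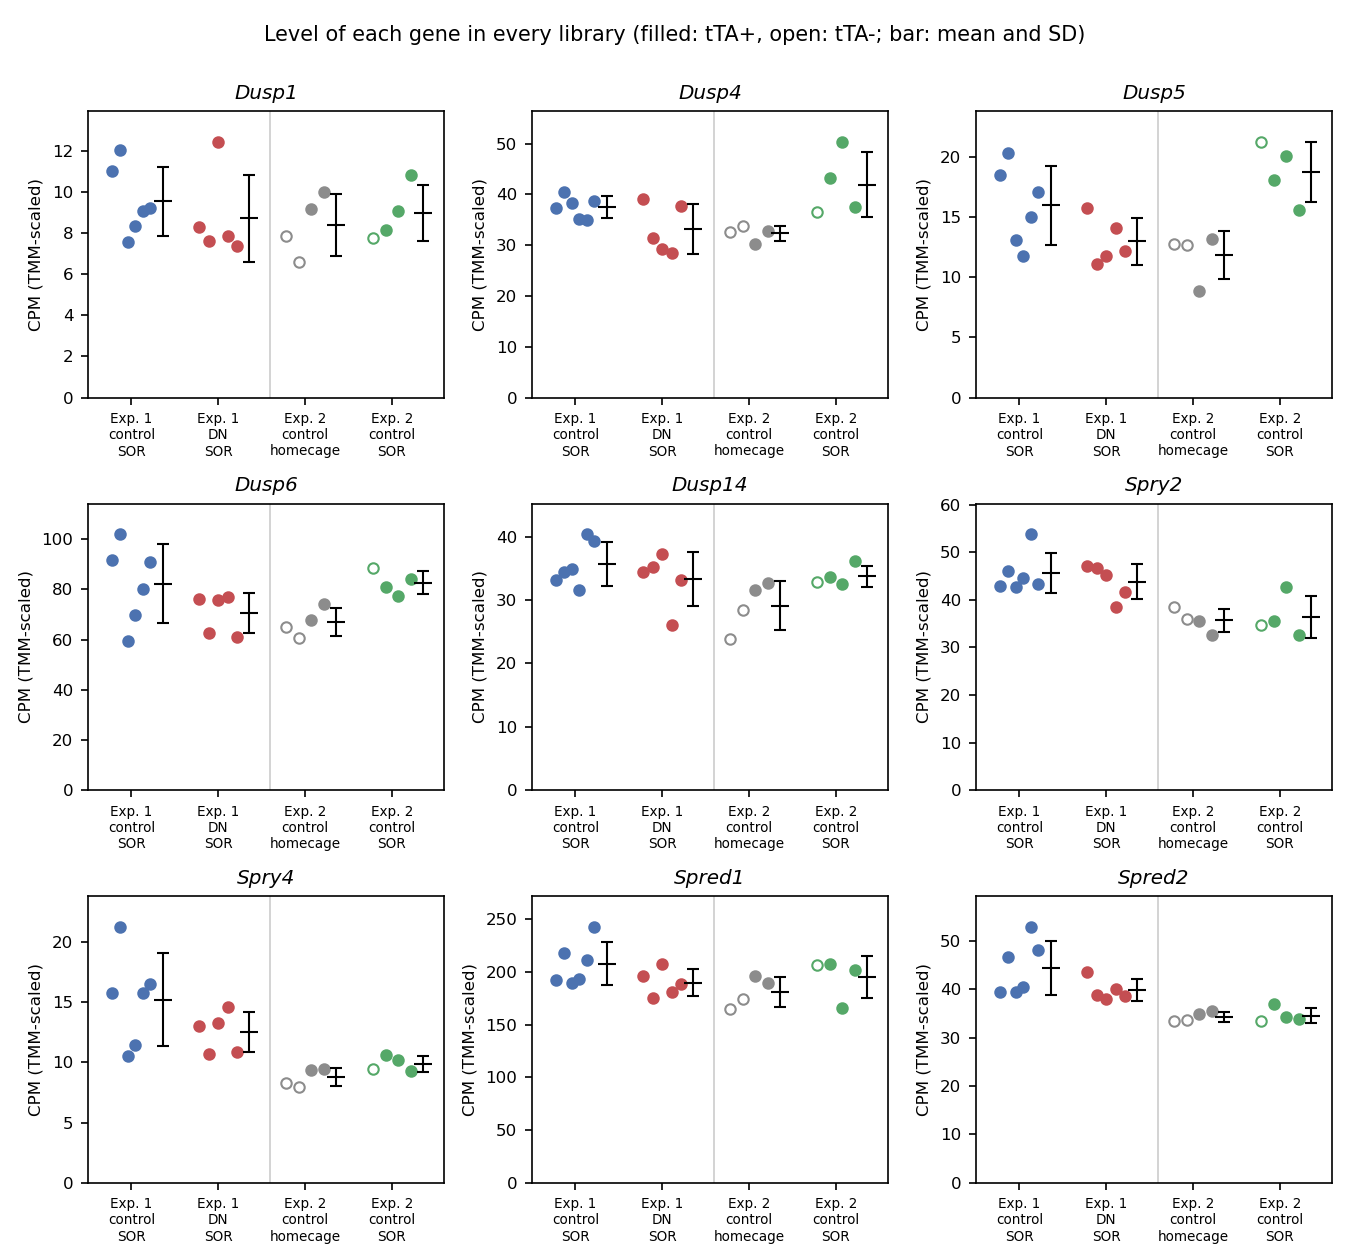
Level of each gene in CPM in every library of the 4 groups, with the mean and SD beside the points; filled points are tTA+ and open points tTA- mice. The SOR libraries of experiment 2 lie above all homecage libraries in Dusp4, Dusp5 and Dusp6, and DN and control libraries of experiment 1 overlap in all 9 genes.

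The second comparison asked whether the dominant-negative Nr4A transgene altered these genes after SOR, in experiment 1. All 9 had a lower mean in DN mice, with fitted levels from 0.814 (Dusp5) to 0.960 (Spry2) of the control level, and the groups overlapped in every one of them; DN lay below all controls in 0.107% of all genes. None was called, and the edgeR adjusted p was 0.999 for each. Of all 22391 genes tested, 2 were called (0.00893%), and 50.0% had a fold change below 0.

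Dusp5 measured 15.8, 11.1, 11.7, 14.1 and 12.2 CPM across DN replicates 1 to 5, against a lowest value of 11.8, a median of 16.1 and a highest of 20.3 CPM in the controls. Its log2 fold change was -0.30 (SE 0.147, 95% interval -0.62 to 0.03), the largest decrease of the 9. Spry4 (ENSMUSG00000024427.6, chromosome 18, 38586247 to 38601415) was at 13.0, 10.7, 13.3, 14.6 and 10.9 CPM in DN mice, against 10.5, 15.8 and 21.2 CPM as the lowest, median and highest control values. For both genes the DN values lay in the lower part of the control range or, for 2 Dusp5 libraries, just below it.

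Dusp6 was at 76.0, 62.5, 75.6, 77.1 and 61.1 CPM with DN, against a lowest value of 59.5, a median of 85.6 and a highest of 101.9 CPM in the controls. Its log2 fold change was -0.22 (SE 0.143), and that of Spry4 -0.28 (SE 0.178). Without control replicate 2 the value of Spry4 was -0.16, and that of Dusp6 was -0.30 to -0.15 over the 11 fits that each left out 1 library. For these 3 genes the controls spread more widely than the DN mice, with a coefficient of variation of 19.02% against 11.2% for Dusp6, 25.5% against 13.3% for Spry4 and 20.5% against 14.9% for Dusp5. The controls also spread more widely for Spred2 (12.55% against 5.57%), Spred1 (9.89% against 6.71%) and Spry2 (9.26% against 8.39%). For Dusp4 (5.75% against 14.7%), Dusp1 (17.6% against 24.2%) and Dusp14 (9.66% against 12.8%) the DN mice spread more widely. Control replicates 3 and 4 were the lowest controls for Dusp5, Dusp6 and Spry4 and lay within or below the DN range in each.

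Dusp4 and Spred2 were the 2 of the 9 genes with an unadjusted p under 0.05, a mark that 1.81% of all genes met with a lower level. Dusp4 was at 39.0, 31.3, 29.2, 28.6 and 37.7 CPM in DN mice and at 34.9, 37.8 and 40.4 CPM as the lowest, median and highest control values. DN replicates 2 to 4 were thus below every control, and replicates 1 and 5 within their range. The log2 difference was -0.18 (SE 0.0776, unadjusted p 0.0371). The count of 2 rested on single libraries: it was 0 without control replicate 2 or 6, DN replicate 2 or 4, or the low-count filter, 1 without control replicate 5 or DN replicate 5, 4 without control replicate 4 and 5 without control replicate 3.

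Spred2 was at 43.6, 38.9, 38.1, 40.1 and 38.6 CPM with DN and at 39.4, 43.6 and 52.9 CPM as the lowest, median and highest control values, a log2 fold change of -0.16 (SE 0.0734). Spred1 was at 174.8 to 207.1 CPM with DN and 188.9 to 242.4 CPM in the controls, a log2 fold change of -0.13 (SE 0.0626). Dusp1 had -0.13 (SE 0.150), Dusp14 -0.10 (SE 0.0874; -0.03 without DN replicate 4) and Spry2 -0.06 (SE 0.0640). DN replicate 3 had the highest Dusp1 of either group, at 12.4 CPM; without it the log2 fold change of Dusp1 was -0.29 (unadjusted p 0.0173, edgeR adjusted p 0.999). Without control replicate 2 it was -0.05 (unadjusted p 0.722). Spred2 was at -0.10 and Spry2 at -0.00 without control replicate 5, and Spred1 was at -0.08 without control replicate 6.

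None of the 83 genes tested from the 7 pathway lists was called with DN, and 0 had an unadjusted p under 0.05. Over all genes, 858 of 22391 had an unadjusted p under 0.05 by edgeR, in either direction. The median log2 fold change was -0.15 for ERK-dependent transcripts, with 13 of 15 below 0, and between -0.05 and 0.01 for the other 6 lists. The median of the 9 feedback genes was -0.16, and that of all genes 0.0001. The fitted fold changes of all 8 choroid plexus markers were below 0 with DN, 0 of them called, with a median of -0.98 on the log2 scale. Control replicates 1 and 2 carried this direction: their summed level was 4167 and 1368 CPM, and that of control replicates 3 to 6 was 23.0 to 27.8 CPM, below every DN library (29.6 to 1658 CPM). The median over libraries was 42.5 CPM with DN and 27.6 CPM in controls; the part of this RNA in the values above was not tested. DN reads cannot be told apart from those of the endogenous Nr4A genes in this table, and expression of the transgene was not tested.

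**Figure D4:**
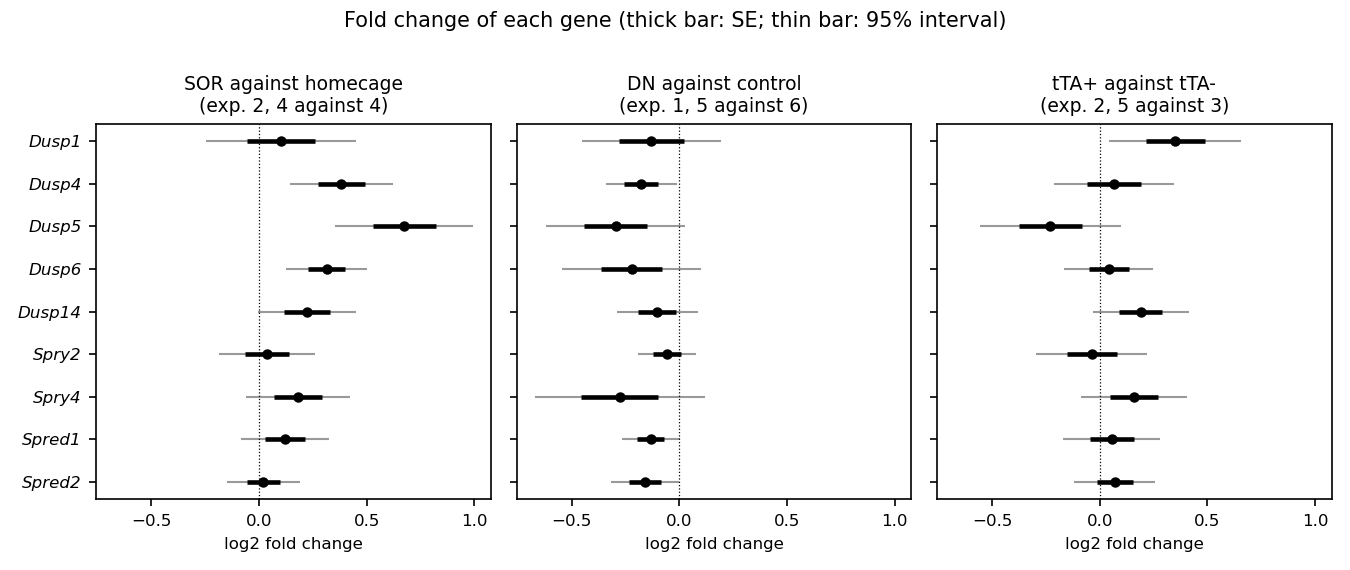
Log2 fold change of each gene in the 3 comparisons, with the SE (thick bar) and 95% interval (thin bar). After SOR the intervals of Dusp4, Dusp5 and Dusp6 lie above 0; with DN all 9 points lie below 0, between -0.06 and -0.30, and most intervals cross it.

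The third comparison set tTA+ against tTA- mice among the controls of experiment 2, with exposure in the model; it uses the same 8 libraries as the SOR comparison. Dusp1 was 1.28-fold higher in tTA+ mice, and the other genes were at 0.853 (Dusp5) to 1.14 times (Dusp14) the tTA- level. None of the 9 was called, against 0.358% of the 22904 genes tested. The median log2 fold change was 0.07, with 7 of the 9 above 0, as were 53.2% of all genes.

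Dusp1 (ENSMUSG00000024190.6, chromosome 17) was at 9.17, 10.01, 8.17, 9.10 and 10.8 CPM in the 5 tTA+ mice and at 7.85, 6.58 and 7.77 CPM in the 3 tTA- mice. The groups did not overlap, in the homecage (9.17 and 10.01 against 7.85 and 6.58 CPM) or after SOR (8.17 to 10.8 against 7.77 CPM). Its log2 fold change was 0.35 (SE 0.138, 95% interval 0.0453 to 0.658; unadjusted p 0.0284, adjusted p 0.734 by edgeR). An unadjusted p under 0.05 with a positive change was met by 2.27% of all genes, and by 1 of the 9. Dusp1 did not meet it without homecage replicate 2, 3 or 4 or SOR replicate 1 or 4. Nor did it with all 19 libraries in 1 fit or with a block on replicate number. Spred2 also had separate groups, 33.8 to 36.9 against 33.4 to 33.7 CPM, as did 2.53% of all genes with tTA+ higher, but its log2 fold change was 0.07 (SE 0.0839). The table's identifier version of Dusp1 precedes an annotation in which the gene overlaps Ergic1 and 3 other genes, of which 2 in all are in the table, and how reads were shared there is not given.

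Dusp14 was at 31.5 to 36.2 CPM in tTA+ and 23.9 to 32.8 CPM in tTA- mice, with a log2 fold change of 0.19 (95% interval -0.03 to 0.41). Dusp5 and Spry2 were the genes below 0, at -0.23 (SE 0.147) and -0.04 (SE 0.116). Spry4 was at 0.16 (SE 0.112), Dusp4 at 0.07 (SE 0.125), Spred1 at 0.06 (SE 0.101) and Dusp6 at 0.04 (SE 0.0924). Each of these intervals included 0. Dusp5 was at -0.11 without homecage replicate 3, at -0.38 without homecage replicate 4 (unadjusted p 0.0288) and at -0.05 without exposure in the model. Leaving out 1 library gave 0.12 to 0.29 for Dusp14, at its ends without homecage replicate 1 and SOR replicate 1, and 0.01 to 0.18 for Spred1, lowest without homecage replicate 1 or 3 and highest without SOR replicate 1.

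Markers of dentate granule cells moved with tTA. Their summed level was 269.7 to 322.2 CPM in tTA+ and 535 to 556 CPM in tTA- mice, and 4 of the 7 were called lower (C1ql2, Pla2g2f, Trpc6 and Dsp) and 1 higher (Tdo2). Tbr1, a marker of neighbouring cortex, was called higher, at 37.5 ± 7.09 against 12.6 ± 0.950 CPM (SD, n = 5 and 3). The part of cell composition in the level of Dusp1 was not tested.

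Of the pathway lists, none had a gene called by tTA, in edgeR. Spry1, a further Sprouty gene, was at 10.9 ± 1.15 against 8.33 ± 0.980 CPM (SD, n = 5 and 3; unadjusted p 0.0200). Lrig1, an inhibitor of ERBB receptors, was higher by 0.23 and Il17rd lower by a log2 fold change of -0.43. Bdnf, a neurotrophin that signals to ERK through TrkB, was at 59.7 ± 7.36 against 74.7 ± 2.70 CPM, with groups that did not overlap (log2 fold change -0.38, edgeR adjusted p 0.323). Among ERK-dependent transcripts 3 were lower (Fosl2 at -0.56, Egr2 at -0.68 and Ccnd1 at -0.30) and 1 was higher at an unadjusted p under 0.05, against 3.44% and 2.27% of all genes, or 5.71% in either direction. Rps6ka5, a kinase downstream of ERK and p38, had a log2 fold change of 0.35, and Mapk11, a p38 kinase, of 0.36.

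The libraries within a group also differed, and for some of the genes they differed together. Each gene's log2 CPM was centred on its group mean, and 54 relations were computed over the 19 libraries: all 36 pairs of the 9 genes, each gene with Arc, and each with library size. P-values come from 100000 permutations within groups, are two-sided, and were adjusted over the 54 relations. Of the 36 pairs, 29 had a positive r and 2 an adjusted p under 0.05.

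Dusp6 and Spry4 had r = 0.901 and rho = 0.825 (permutation p 0.00017 and 0.00036, adjusted 0.00774 and 0.00999). Without the 2 libraries farthest from the median of Dusp6, r was 0.804. It was 0.956 over the 11 libraries of experiment 1 and 0.361 over the 8 of experiment 2, where Spry4 spanned only 7.98 to 10.6 CPM. Dusp1 and Dusp6 had r = 0.665 and rho = 0.711 (permutation p 0.00244 and 0.00150, adjusted 0.0220 and 0.0202), with 0.728 in experiment 1, 0.548 in experiment 2 and 0.625 without the 2 farthest libraries.

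Arc varied with 4 of the genes at an adjusted p under 0.05. For Dusp6 and Arc r was 0.872 and rho 0.891 (permutation p 0.00043 and 0.00037, adjusted 0.00774 and 0.00999), with 0.904 in experiment 1 and 0.533 in experiment 2. Dusp5 and Arc had r = 0.781 and rho = 0.793 (permutation p 0.00030 and 0.00134, adjusted 0.00774 and 0.0202), with 0.873 and 0.736. These relations remained at r = 0.813 and 0.752 without the 2 libraries farthest from the median of the phosphatase.

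The other 2 relations with Arc were near 0 in experiment 2. Spry4 and Arc had r = 0.852 and rho = 0.679 (permutation p 0.00210 and 0.0121, adjusted 0.0220 and 0.0750), with 0.912 in experiment 1 and -0.06 in experiment 2, and r was 0.709 without the 2 farthest libraries. Dusp1 and Arc had r = 0.641 and rho = 0.681 (permutation p 0.00233 and 0.00367, adjusted 0.0220 and 0.0396), with 0.790 and 0.0914, and 0.513 without the 2 farthest libraries. The difference between experiments was not tested.

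For Arc, Dusp6 and Spry4 the control mice of experiment 1 covered a wide range. In control replicates 1 to 6 Arc was at 211.9, 300.3, 102.1, 90.2, 139.6 and 173.4 CPM, Dusp6 at 91.6, 101.9, 59.5, 69.7, 80.3 and 90.9 CPM, and Spry4 at 15.7, 21.2, 10.5, 11.4, 15.8 and 16.6 CPM. Replicate 2 was the highest in all 3 genes and replicates 3 and 4 the lowest. Replicates 1 and 2, with the highest choroid plexus levels among the controls (4167 and 1368 CPM), also had the highest Arc and Dusp6; replicates 3 to 6 were alike in choroid plexus RNA, at 23.0 to 27.8 CPM, with Dusp6 from 59.5 to 90.9 CPM. Its part in these relations was not tested. None of the 9 genes had an adjusted p under 0.05 with library size. Within experiment 2, r with library size was 0.961 for Spred1, -0.77 for Spry2 and -0.76 for Dusp4.

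**Figure D5:**
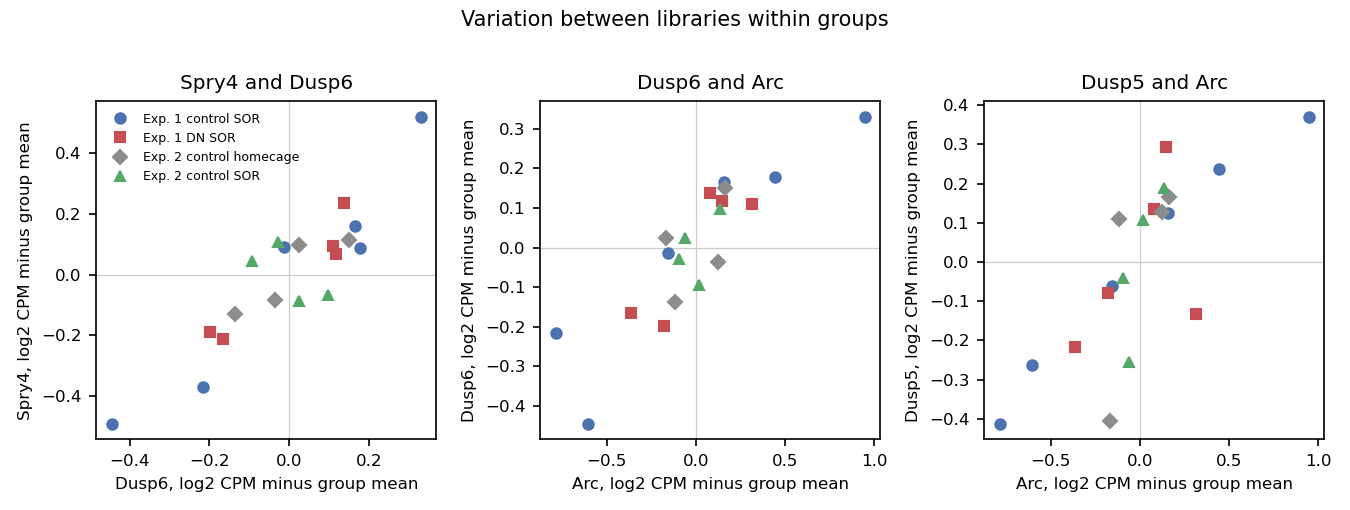
Log2 CPM of each library minus its group mean, for Spry4 against Dusp6 and for Dusp6 and Dusp5 against Arc, with the 4 groups as symbols. The control libraries of experiment 1 span the widest range in each panel, and r over the 19 libraries is 0.901, 0.872 and 0.781.

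A search over 16850 other genes with a mean of at least 1 CPM asked which varied most like each of the 9, as a description over the same 19 centred libraries. The 3 genes most like Dusp6 were Spry4 (r 0.901), Fos (0.875) and Arc (0.872). Those most like Spry4 were Dusp6, Junb (0.880) and Fos (0.874), and those most like Dusp1 were Gadd45b (0.822), Fos (0.810) and Rbbp8 (0.805). Fos, Junb, Arc and Gadd45b are genes that neurons are known to induce soon after activity.

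For the other 6 genes the search gave further names. Banp (0.885), Dnajc1 (0.874) and P4ha1 (0.791) were nearest to Dusp5, and Gcc2 (0.806), Pyroxd1 (0.798) and Zfp879 (0.796) to Dusp4. For Dusp14 they were Ppm1a (0.809), Clec5a (0.805) and Efr3a (0.794), and for Spry2 Pgs1 (0.842), Dmtn (0.840) and Calcoco1 (0.826). Eri1 (0.906), Nrsn1 (0.879) and Hspa4l (0.864) were nearest to Spred1, and Ube2ql1 (0.760), Layn (0.741) and Cryab (0.730) to Spred2. Of these 6 genes only Dusp5 had an adjusted p under 0.05 with Arc.

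The experiments were scaled separately, so levels across them are given side by side with no test. In SOR-exposed controls, Spry4 was at 10.5 to 21.2 CPM in experiment 1 and 9.28 to 10.6 CPM in experiment 2. Spry2 was at 42.6 to 53.7 and 32.6 to 42.6 CPM, and Spred2 at 39.4 to 52.9 and 33.4 to 36.9 CPM. Dusp5 was at 11.8 to 20.3 and 15.6 to 21.2 CPM, and Dusp6 at 59.5 to 101.9 and 77.4 to 88.4 CPM. Spred1 was at 188.9 to 242.4 and 165.8 to 207.0 CPM, and Dusp4 at 34.9 to 40.4 and 36.5 to 50.4 CPM. Dusp1 was at 7.58 to 12.1 and 7.77 to 10.8 CPM, and Dusp14 at 31.7 to 40.4 and 32.6 to 36.2 CPM.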

How the data were processed

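Ribosomal-RNA-depleted total RNA libraries were made from dorsal hippocampus with Trizol and a TruSeq kit, per the labels' protocols. The authors deposited raw counts per gene as 1 table of 51789 genes and 19 libraries; the submitters' processing notes name STAR, SAMtools 1.6, featureCounts 1.4.4 and mm10. The annotation, strand setting and handling of multiply mapped reads are not given in the sources used here. Each column name matched the description of 1 library. Symbols, coordinates and exon lengths came from GENCODE M21 (GRCm38), which named 51596 of the identifiers.

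Each experiment was fitted alone with edgeR 4.0.16 in R 4.3.3 (TMM, filterByExpr, robust quasi-likelihood F test, two-sided), with Benjamini-Hochberg adjustment over all genes tested and a call at an adjusted p under 0.05. Intervals of fold changes use the moderated degrees of freedom. Groups overlap or not by log2 CPM with a prior count of 2. On simulated data with 200 genes changed by 1 on the log2 scale, 200, 197 and 195 were recovered in the DN, SOR and tTA designs (22144, 21992 and 22527 genes), with 11, 8 and 11 false calls. The simulation gave every gene the same dispersion and changed only genes with high counts. Its change was larger than any measured for the 9 genes, so these counts do not give the power to call them. Replicates differed by more than counting noise (chi-square per degree of freedom 4.63 to 73.4). Alternatives were DESeq2 1.42.0, limma-voom 3.58.1, other scalings, filters, thresholds and covariates, a joint fit of all libraries, a block on replicate number, and each library left out. Text values name all 9 genes, called genes of the pathway lists or up to 3 per list with the smallest unadjusted p under 0.05, called cell markers, and the 3 genes most like each. The 9 genes and all lists were chosen with earlier results of these data known. Promoter sequence was not used for Dusp4 and Spry4.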

Additional observations from a re-analysis of the deposited data

Results flagged for a closer look

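In groups of 4 to 6 libraries, 4 of 36 sets of values had 1 library far from the rest, where chance gives about 1 in 20. Dusp1 was at 12.4 CPM in DN replicate 3, against 8.33 CPM in the next highest DN library. Dusp5 was at 8.83 CPM in homecage replicate 3, against 12.6 CPM in the next lowest. Spry2 was at 53.7 CPM in control replicate 5 of experiment 1, against 46.1 CPM in the next highest. Spred1 was at 165.8 CPM in SOR replicate 3 of experiment 2, against 202.1 CPM in the next lowest; that library had the fewest counts and also the highest Dusp4 and Spry2 of its group.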

How the results depend on the processing

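With DN, 0 of the 9 genes were called in all 20 alternative fits, all genes called stayed at 2, and no fold change of the 9 reversed. After SOR, DESeq2 called 1 of the 9 and every other fit 0. Genes called over the whole table after SOR, 20 by edgeR, were 35 at an adjusted p under 0.1, 36 with no filter, 122 by DESeq2, 145 with all 19 libraries in 1 fit, 11 with tTA as a covariate and 0 in tTA+ mice alone (374 at an unadjusted p under 0.05, edgeR). Leaving out 1 library gave 1 to 50: 1, 1, 1 and 7 when the one left out was homecage replicate 1, 2, 3 or 4, and 2, 13 and 50 for SOR replicates 1 to 3. By tTA, 82 genes were called by edgeR, against 133, 265, 253 and 383 at the 0.1 threshold, with no filter, by DESeq2 and with all libraries. Leaving out 1 gave 10 to 290: 24, 25, 24 and 22 for homecage replicates 1 to 4, and 10 and 290 for SOR replicates 1 and 3. The cause was not tested. Fold changes near 0 reversed in 15 of 513 gene-level refits. After SOR these were Spry2 (-0.01) and Spred2 (-0.02) with upper quartile scaling, Spred2 (-0.01) with at least 10 counts in every sample, and Dusp1 (-0.02) in tTA+ mice. Leaving out 1 library gave -0.01 to 0.20 for Dusp1, -0.05 to 0.08 for Spry2 and -0.01 to 0.04 for Spred2. By tTA it gave -0.07 to 0.13 for Dusp4, -0.02 to 0.17 for Dusp6 and -0.13 to 0.01 for Spry2.

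Replicate numbers are not stated to pair libraries, and same-numbered libraries had deviations with r of -0.05 to 0.19 in experiment 1 and 0.05 to 0.39 in experiment 2. With the replicate block, 9 genes were called after SOR and 0 by tTA (389 at an unadjusted p under 0.05, edgeR), the call of 0 among the 9 genes was the same in each comparison, and Dusp4 reversed by tTA (-0.01). Over the 10 alternative fits by tTA that left out no library, the log2 fold change of Dusp14 was 0.02 to 0.23. That of Spry4 was 0.13 to 0.31, of Spred1 0.03 to 0.18 and of Spred2 0.04 to 0.15.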
